A study of Mus musculus with 2 samples.

Results

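Genes that prepare, fold and export secreted protein were followed across the cells of mouse popliteal lymph nodes (PLNs). The list holds 40 genes of 32245 gene symbols measured, taken by symbol, and all 40 had at least 1 UMI (unique molecular identifier, 1 captured RNA molecule) in both libraries. They correspond to 41 of 32285 gene identifiers, because Ddit3 is annotated under 2 identifiers, of which ENSMUSG00000025408 gave every UMI. The nodes drain the hindpaw and knee and came from male TNF-Tg mice, which carry a TNF transgene and develop inflammatory-erosive arthritis, on a C57BL/6 background. The Advanced library pooled 6 PLNs of 3 mice older than 8 months with late disease, and the Early library pooled 6 PLNs of 3 mice aged 5 to 6 months. Live cells were sorted and profiled by droplet single-cell RNA sequencing. Both groups carried the transgene, and wild-type nodes were not analysed here. Each stage is 1 library, so age, disease stage and library cannot be told apart, and no difference between stages has a replicate check or a p-value.

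Plasma cells export antibody at a very high rate, and every chain of it passes through the endoplasmic reticulum (ER). Nascent chains enter through the Sec61 channel, lose their signal peptide to signal peptidase, fold with the help of chaperones such as BiP (Hspa5) and protein disulfide isomerases, and, where folding fails, are pulled back out by ER-associated degradation. The unfolded protein response adjusts this capacity through the sensors IRE1, ATF6 and PERK. IRE1 splices the mRNA of Xbp1, and the resulting XBP1 protein drives many ER genes and is required for plasma cell secretion. PERK acts through Atf4 and, under lasting stress, Ddit3 (CHOP).

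A known target sequence of the ATF6 and XBP1 branch, the ER stress response element (ERSE), was searched for to show what the promoters of the list share. RefSeq promoter windows (GRCm38.p6) were at hand for 33 of the 40 members. The remaining 7 were Sec61a1, Derl1, Ssr2, Spcs3, Mzb1, Hyou1 and Manf. In the 250 bases before the annotated start, on either strand, the letters CCAAT, 9 free bases and CCACG occurred in 8 of 33 members (24.2%), against 35 of 27025 genes with such a window (0.13%). The 9 matches are printed below 5′ to 3′ on the strand that carries the motif, with 5 flanking bases on each side. Capitals mark CCAAT and CCACG.
Hspa5, chr2:34772020-34772048, plus strand: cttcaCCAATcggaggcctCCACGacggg
Calr, chr8:84847070-84847098, plus strand: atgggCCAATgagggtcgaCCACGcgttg
Derl3, chr10:75893237-75893265, minus strand: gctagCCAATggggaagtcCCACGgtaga
Hsp90b1, chr10:86705633-86705661, minus strand: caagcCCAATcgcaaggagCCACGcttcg
Hsp90b1, chr10:86705528-86705556, plus strand: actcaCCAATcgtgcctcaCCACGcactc
Canx, chr11:50325795-50325823, minus strand: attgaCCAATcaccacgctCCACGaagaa
Pdia6, chr12:17266486-17266514, plus strand: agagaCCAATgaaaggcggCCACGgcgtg
Dnajc3, chr14:118937822-118937850, plus strand: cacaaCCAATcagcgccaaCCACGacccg
Creld2, chr15:88819515-88819543, minus strand: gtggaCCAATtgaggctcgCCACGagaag

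The motif lay on the gene's own strand for Hspa5, Canx, Pdia6, Dnajc3 and 1 of the Hsp90b1 sites, and on the opposite strand for Calr, Derl3, Creld2 and the other Hsp90b1 site. Its centre was between 56 bases (Hspa5) and 203 bases (Hsp90b1) before the start. A related element, ERSE-II, was searched for as ATTGG, 1 free base and CCACG, and occurred in Herpud1 (1 of 33 members, against 0.037% of genes), at chr8:94386372-94386392 on the plus strand.
Herpud1, ERSE-II in capitals: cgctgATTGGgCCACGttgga

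The core of the UPRE, an XBP1 element, with the letters TGACGTGG, occurred in Txndc5 and Txndc11 (2 of 33 members, against 0.603% of genes). These 2 sites lay at chr13:38528040-38528057 and chr16:11134622-11134639, both on the minus strand, and are printed with the core in capitals.
Txndc5: gccgcTGACGTGGcgcta
Txndc11: gtggcTGACGTGGagagt

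The letters TGATGCAA, an ATF4 composite element, occurred in Herpud1 alone among the 33, against 0.918% of genes. Each match is a description of letters in a window and not a measured site. Members with ERSE letters include Derl3 and Creld2, whose ratios to resting B cells below are among the largest of the list, and also Canx, whose ratios are near 1.

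The libraries held 8183 cells (Advanced) and 8221 cells (Early) with at least 200 genes detected, with a median of 7837 and 6643 UMIs per cell. Levels are given as CPM, the UMIs of a gene for every 1000000 UMIs of all cells of a class summed. Their 95% intervals, and those of ratios, are exact for counting error only and do not cover differences between mice or between cells. Cells were assigned by raw UMIs of marker genes. The classes were cells with 20 or more Jchain UMIs (51 Advanced, 44 Early), cycling B cells (66 and 60), activated B cells with Cd83 plus Egr3 (278 and 390), intermediate B cells (1160 and 1469), resting B cells (4159 and 5543), plasmacytoid dendritic cells or pDCs (44 and 40), myeloid cells (281 and 150) and T cells (1082 and 147). A further 495 Advanced and 157 Early cells passed gates of 2 unlike lineages and were set aside. The barcode lists of the 2 libraries shared 20 sequences.

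Markers that the gates did not use were checked. Gated pDCs held Bst2 at 3161 (Advanced) and 3043 CPM (Early), Ccr9 at 503 and 658 CPM, and Klk1 at 220 and 384 CPM. Resting B cells held Ighd at 669 (Advanced) and 665 CPM (Early) and Cr2 at 388 and 417 CPM, and T cells held Trac, Trbc2 and Lck at 2190 and 2657 CPM. The gate of 20 Jchain UMIs, by contrast, did not hold plasma cells alone. The gate is described first as a whole and then as its 2 kinds of cell, split after the data were seen by the share of a cell's UMIs that came from immunoglobulin genes.

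Above a share of 10% lay 32 Advanced and 21 Early cells, called immunoglobulin-rich here, with a median share of 51.5% and 57.6%. Sdc1, which encodes the plasma cell surface proteoglycan CD138, had a UMI in 27 of 32 Advanced and 20 of 21 Early ones. Tnfrsf17 (BCMA) had one in 22 and 17 of them, and Prdm1 (Blimp-1), the regulator of plasma cell fate, in 18 and 19. Below the line lay 19 Advanced and 23 Early cells, called immunoglobulin-poor, whose median share was 0.920% and 1.05% and whose highest was 4.32% and 2.18%. Among these, Sdc1 had a UMI in 2 of 19 Advanced and 0 of 23 Early cells, and Tnfrsf17 in 1 cell of each library. They held 3 or more UMIs of the cycling genes Mki67 and Top2a in 18 of 19 Advanced and 20 of 23 Early cells. Other plasma cell genes were mixed in these cells. Prdm1 was at 20.1 (Advanced) and 16.3 CPM (Early), against 2.48 and 1.84 CPM in resting B cells. Slamf7, at 90.1 and 130 CPM, and Ell2, at 53.3 and 33.8 CPM, also lay above resting B cells. Irf4, at 56.9 and 19.6 CPM, and Tnfrsf13b, at 80.6 and 61.0 CPM, lay at or below them. The immunoglobulin share, Sdc1 and Tnfrsf17 go against the name plasma cell for this kind, and it is called by its rule. Most cells just over the Jchain gate were of this kind: of the cells with 20 to 29 Jchain UMIs, 1 of 11 Advanced and 0 of 13 Early cells were immunoglobulin-rich.

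**Figure D1:**
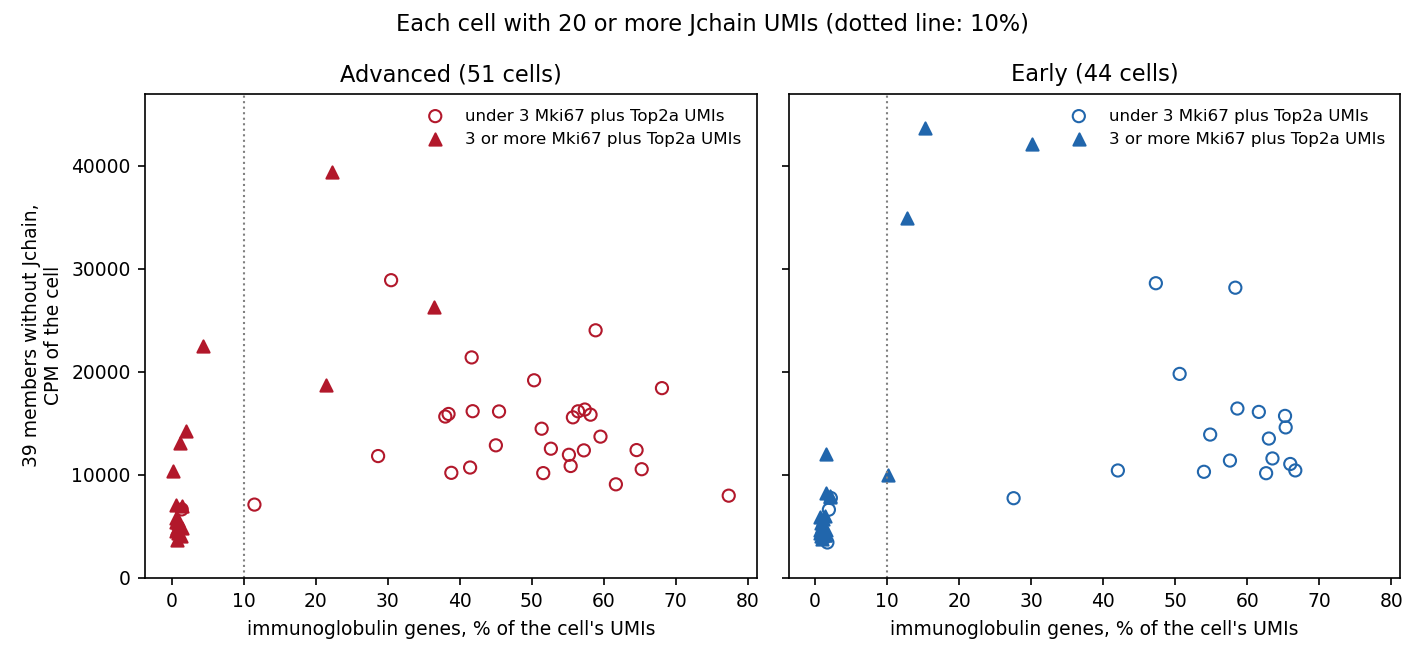
Each point is 1 cell with 20 or more Jchain UMIs, Advanced on the left (51 cells) and Early on the right (44 cells). The x axis gives the percentage of the cell's UMIs from immunoglobulin genes, the y axis the summed CPM of the 39 members without Jchain, and filled triangles mark cells with 3 or more Mki67 plus Top2a UMIs. Cells left of the dotted line at 10% lie near the bottom in most cases, with 1 Advanced cell at 22520 CPM. The highest cells, at 39402 CPM (Advanced) and 43647 CPM (Early), are immunoglobulin-rich and hold 3 or more Mki67 plus Top2a UMIs.

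The 39 members without Jchain summed to 13789 CPM (Advanced) and 11972 CPM (Early) in the whole Jchain gate, against 3642 and 3796 CPM in resting B cells. The ratio of gated to resting B cells was 3.79 (3.74 to 3.84) in the Advanced and 3.15 (3.11 to 3.20) in the Early library. Jchain itself is left out of the sums and of the counts of called or peaking members because it sets the gate. In immunoglobulin-rich cells the sum was 17193 CPM (Advanced) and 19024 CPM (Early), 4.72-fold and 5.01-fold the level of resting B cells. Immunoglobulin transcripts take 48.2% and 49.7% of the UMIs of these cells, which lowers the CPM of every other gene. With immunoglobulin genes taken out of the totals, the members were 9.004-fold (Advanced) and 9.84-fold (Early) the level of resting B cells. Immunoglobulin-poor cells summed to 9073 CPM (Advanced) and 5870 CPM (Early), which is 2.49-fold and 1.55-fold the level of resting B cells.

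Cells of 1 kind varied widely. In immunoglobulin-rich cells the members' summed level per cell ran between 7107 and 39402 CPM with a median of 15023 CPM in the Advanced library, and between 7727 and 43647 CPM with a median of 13903 CPM in the Early library. The 3 of 32 Advanced cells with 3 or more Mki67 plus Top2a UMIs had a median of 26267 CPM, against 13703 CPM in the other 29. The 4 such cells of 21 Early ones had a median of 38515 CPM, against 13516 CPM in the other 17. Other cycling genes give little ground to call the Advanced ones cycling. The 32 Advanced cells together held 0 Birc5, 0 Ccnb1, 1 Cdk1 and 1 Ube2c UMIs. The 21 Early cells held 32, 19, 26 and 40. The Advanced cell at 26267 CPM held 3 Mki67 plus Top2a UMIs among 114402 UMIs in all. Cells that reached this count also held less immunoglobulin, with a median share of 22.2% (Advanced) and 14.0% (Early), against 52.7% and 58.6% in the others. Per UMI of other genes the medians were closer. Cells that reached the count had 43135 CPM (Advanced) and 46161 CPM (Early), against 30937 and 36621 CPM in the others. Cells whose leading heavy chain was Ighm had a median of 16160 CPM (13 Advanced cells) and 13516 CPM (11 Early cells). Those led by Ighg2b had 13117 CPM (10 Advanced cells) and 14598 CPM (3 Early cells), inside the range of the Ighm-led cells of the same library.

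**Figure D2:**
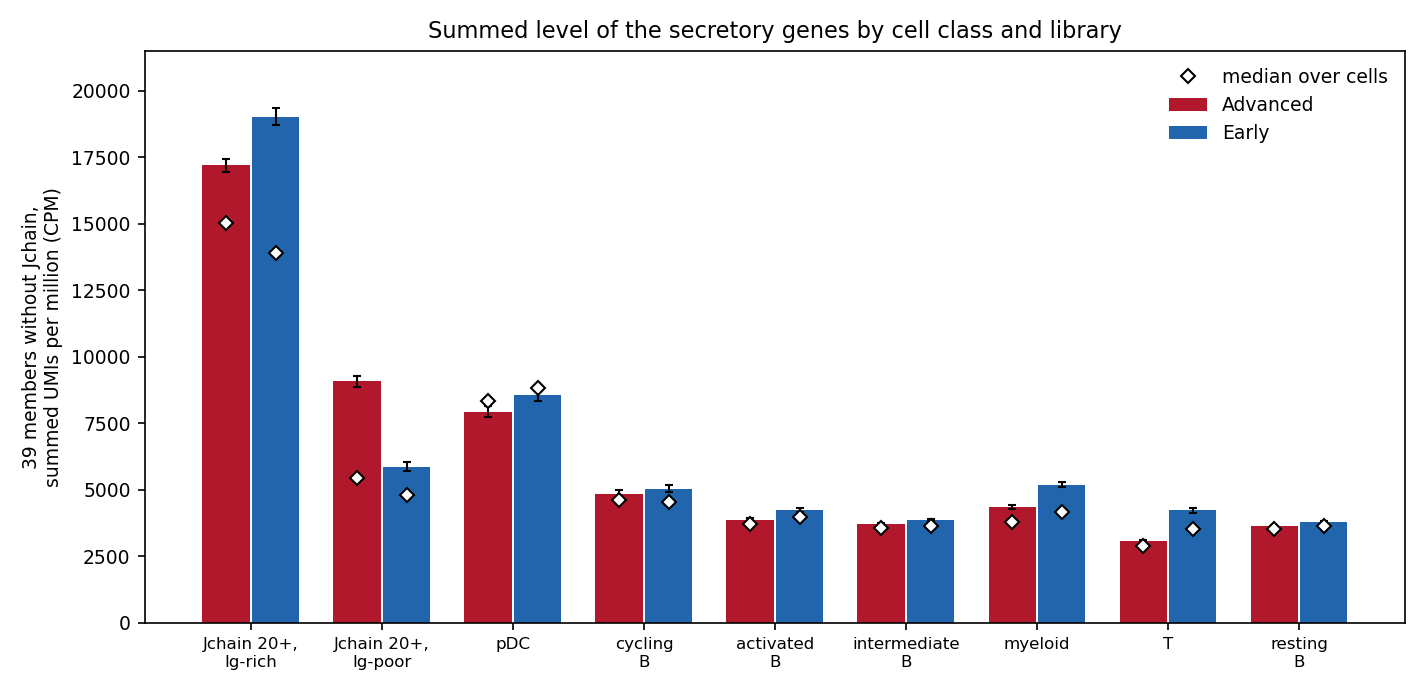
Bars give the summed CPM of the 39 members without Jchain in each cell class (x axis), Advanced to the left of Early, with exact 95% counting intervals, and diamonds give the median over single cells. Immunoglobulin-rich cells stand highest, at 17193 CPM (Advanced) and 19024 CPM (Early), and pDCs stand at 7940 and 8558 CPM, above all B cell classes that did not pass the Jchain gate.

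Between classes of 1 library a member was called higher or lower when its whole counting interval lay beyond 2-fold, among genes of at least 10 CPM in either class. Over resting B cells, 30 of 39 members were called higher in the whole Jchain gate in the Advanced library, where 9.32% of all 7480 genes tested were, and 24 of 39 in the Early library, against 10.3% of all genes. None was called lower, against 9.69% and 10.1% of all genes. The 24 Early members were all among the 30 Advanced ones. The median log2 ratio of the 39 was 1.95 (Advanced) and 1.51 (Early), against -0.33 and -0.25 over all genes tested. In the whole gate Derl3 was at 144 CPM (Advanced) and 102 CPM (Early), against 0.725 and 1.10 CPM in resting B cells, a ratio of 199 and 92.6. Fkbp11 was at 88.9 and 65.4 CPM, against 3.20 and 4.31 CPM, and Creld2 at 219 and 154 CPM, against 11.99 and 11.0 CPM. Xbp1 was at 558 and 501 CPM, 16.7-fold and 13.5-fold its resting level. Counting only gated cells that pass no other lineage gate leaves 14 members called in the Advanced library. No share of all genes is given for that count, so it is not set against the 30. Most gated cells pass the myeloid gate (30 of 51 Advanced, 24 of 44 Early), which rests on Csf1r plus Cst3, while Csf1r itself was at 5.13 CPM in Advanced and 0 CPM in Early immunoglobulin-rich cells. Immunoglobulin-rich cells passed the myeloid gate more often (25 of 32 Advanced, 17 of 21 Early) than immunoglobulin-poor ones (5 of 19 and 7 of 23). Leaving out cells of another lineage gate thus also changes the mix of the 2 kinds.

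In immunoglobulin-rich cells 31 members (Advanced) and 28 members (Early) were called higher than in resting B cells, against 5.52% and 6.03% of all genes, and the 28 were all among the 31. None of the 39 was called lower in either library, where 18.4% and 20.5% of all genes were. Against immunoglobulin-poor cells, 16 (Advanced) and 20 (Early) of 39 were called higher, against 3.72% and 3.44% of all genes, and 14 were shared. Of the other direction, 1 (Advanced, Canx) and 0 (Early) were called lower, against 27.5% and 25.8%. Immunoglobulin-poor cells had 22 (Advanced) and 7 (Early) of 39 called higher than in resting B cells, against 15.3% and 13.9% of all genes, and 0 and 2 called lower (Early, Pdia4 and Sec61a1), against 5.29% and 6.05%.

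Among the transcription factors, Xbp1 was at 855 CPM (Advanced) and 989 CPM (Early) in immunoglobulin-rich cells, against 33.4 and 37.2 CPM in resting B cells. The ratio was 25.6 (23.4 to 27.9) and 26.6 (24.4 to 29.04). A UMI of Xbp1 was found in 31 of 32 Advanced and 21 of 21 Early immunoglobulin-rich cells, with medians of 808 and 715 CPM per cell, and the 51 and 44 gated cells together held 24.6% and 23.4% of all Xbp1 UMIs of their library. In immunoglobulin-poor cells it was at 148 and 79.5 CPM. Atf4, the effector of PERK, was at 92.4 (Advanced) and 81.9 CPM (Early) in immunoglobulin-rich cells, against 113 and 93.4 CPM in resting B cells. Ddit3 was at 20.5 and 10.1 CPM, against 25.4 and 25.1 CPM in resting B cells. Neither passed the 2-fold rule in either kind of Jchain-gated cell, in pDCs or in cycling or activated B cells. With immunoglobulin genes out of the totals, Atf4 had ratios of 1.56 (Advanced) and 1.72 (Early) and Ddit3 of 1.54 and 0.789, so that their place relative to 1 depends on the scale.

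Of the antibody assembly genes, Jchain joins IgM and IgA into polymers, and the Jchain gate held 94.96% (Advanced) and 95.7% (Early) of all Jchain UMIs of its library. Outside it, Jchain was at 214 and 253 CPM in cycling B cells and at 15.4 and 10.2 CPM in resting B cells. T cells, which do not make it, held 9.17 and 6.40 CPM, with a UMI in 9.98% of Advanced and 8.16% of Early T cells (median 10709 and 9887 UMIs), against 9.23% and 5.07% of resting B cells (median 7216 and 6420 UMIs). The share of resting B cells with a Jchain UMI was at or below that of the deeper T cells, while their CPM was above it, so neither expression nor background is read from these low levels. Mzb1, an ER co-chaperone of immunoglobulin assembly, was at 2624 (Advanced) and 3776 CPM (Early) in immunoglobulin-rich cells and at 469 and 500 CPM in resting B cells. It had a UMI in 89.1% and 88.7% of resting B cells, against 9.33% and 8.16% of T cells. Its ratio of immunoglobulin-rich to resting B cells was 5.59 (5.38 to 5.82) and 7.55 (7.26 to 7.84).

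The 11 chaperones of the ER lumen had 10 (Advanced) and 8 (Early) members called higher in immunoglobulin-rich than in resting B cells. Hspa5 was at 777 and 487 CPM, against 170 and 187 CPM in resting B cells, a ratio of 4.58 (4.26 to 4.91) and 2.61 (2.35 to 2.89). Hsp90b1 (GRP94) was at 1427 and 1563 CPM, against 148 and 173 CPM. Creld2, a small secreted stress-induced chaperone of the ER, was at 315 and 292 CPM, against 11.99 and 11.0 CPM, and its ratio of 26.3 (22.7 to 30.3) and 26.6 (22.5 to 31.2) was the largest of the group in both libraries. Sdf2l1, a partner of the BiP cycle, had a ratio of 16.1 and 12.9. Dnajc3 (p58IPK), a BiP co-chaperone, had 8.69 and 8.96. Manf, an ER-resident stabiliser of BiP clients, had 8.47 and 6.22. Calr (calreticulin) had 2.55 and 2.46, while Canx (calnexin), its membrane-bound relative in the same glycoprotein folding cycle, was at 57.3 and 89.4 CPM, against 69.6 and 74.4 CPM in resting B cells. In immunoglobulin-poor cells Canx was at 205 and 119 CPM. With immunoglobulin genes out of the totals, its ratio of immunoglobulin-rich to resting B cells was 1.57 (Advanced) and 2.36 (Early).

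Of the 8 disulfide and prolyl isomerases, 7 (Advanced) and 6 (Early) were called higher in immunoglobulin-rich cells. Fkbp11, a prolyl isomerase of the secretory pathway, was at 147 and 141 CPM, against 3.20 and 4.31 CPM in resting B cells. Its ratio was 46.0 (35.9 to 59.1) and 32.7 (25.5 to 41.8). In immunoglobulin-poor cells it had a UMI in 1 of 19 Advanced cells and 0 of 23 Early ones, although Jchain was high in those cells by the gate. Txndc5, a thioredoxin-domain isomerase, was at 647 and 845 CPM, against 63.5 and 52.8 CPM. Fkbp2 had a ratio of 10.6 and 12.6, Txndc11 6.96 and 10.2, and Pdia4 4.92 and 4.31. Erp44, which retains unfinished IgM, was at 119 and 113 CPM, against 67.3 and 60.5 CPM, and did not pass the 2-fold rule.

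Of the 6 genes of ER-associated degradation, 5 were called higher in each library. Derl3, a membrane protein of the retrotranslocation machinery, was at 217 (Advanced) and 195 CPM (Early) in immunoglobulin-rich cells, against 0.725 and 1.10 CPM in resting B cells. Its ratio was 300 (197 to 477) and 178 (126 to 256), the largest of all 39. The gated cells held 74.9% and 60.6% of all Derl3 UMIs of their library, although they are 0.623% and 0.535% of its cells. Its relatives Derl1 and Derl2 spread far more evenly: Derl1 had a ratio of 3.55 and 2.97 and Derl2 of 1.47 and 1.46. Edem1 and Edem2, which hand misfolded glycoproteins to degradation, had 12.1 and 15.4 and 16.0 and 18.9. Herpud1, a scaffold of the complex, had 6.55 and 6.28. With immunoglobulin genes out of the totals, Derl2, the 1 not called, had a ratio of 2.80 (2.11 to 3.66) and 2.86 (2.01 to 3.97).

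Of the 7 genes of the translocon and its associated TRAP complex, 4 were called higher in each library. Ssr4, the delta subunit of TRAP, was at 1659 and 1511 CPM in immunoglobulin-rich cells, against 158 and 165 CPM in resting B cells, a ratio of 10.5 (9.97 to 11.1) and 9.16 (8.60 to 9.74). Its partners in the same complex had smaller ratios: 1.66 and 1.93 for Ssr1, 3.42 and 4.66 for Ssr2, and 2.93 and 3.50 for Ssr3. Of the channel subunits, Sec61b had 3.34 and 3.62, Sec61g 1.49 and 1.70, and the pore-forming subunit Sec61a1 was at 149 and 127 CPM, against 213 and 231 CPM in resting B cells. The Sec61a1 ratio was 0.699 (0.598 to 0.812) and 0.550 (0.448 to 0.670), and with immunoglobulin genes out of the totals it was 1.33 (1.14 to 1.55) and 1.08 (0.879 to 1.31). Sec61a1 is thus below or above its resting level depending on the scale, while its ratio stays under those of Sec61b and Sec61g on both, since the totals scale all genes alike. The calls of Ssr1 and Sec61g depend on the scale as well. With immunoglobulin genes out of the totals, Ssr1 had a ratio of 3.17 (2.56 to 3.89) and 3.80 (2.98 to 4.77). Sec61g had 2.85 (2.66 to 3.05) and 3.33 (3.07 to 3.61) on that scale. With all genes in the totals, all 3 signal peptidase genes were called higher in each library, with ratios between 4.02 and 6.82.

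**Figure D3:**
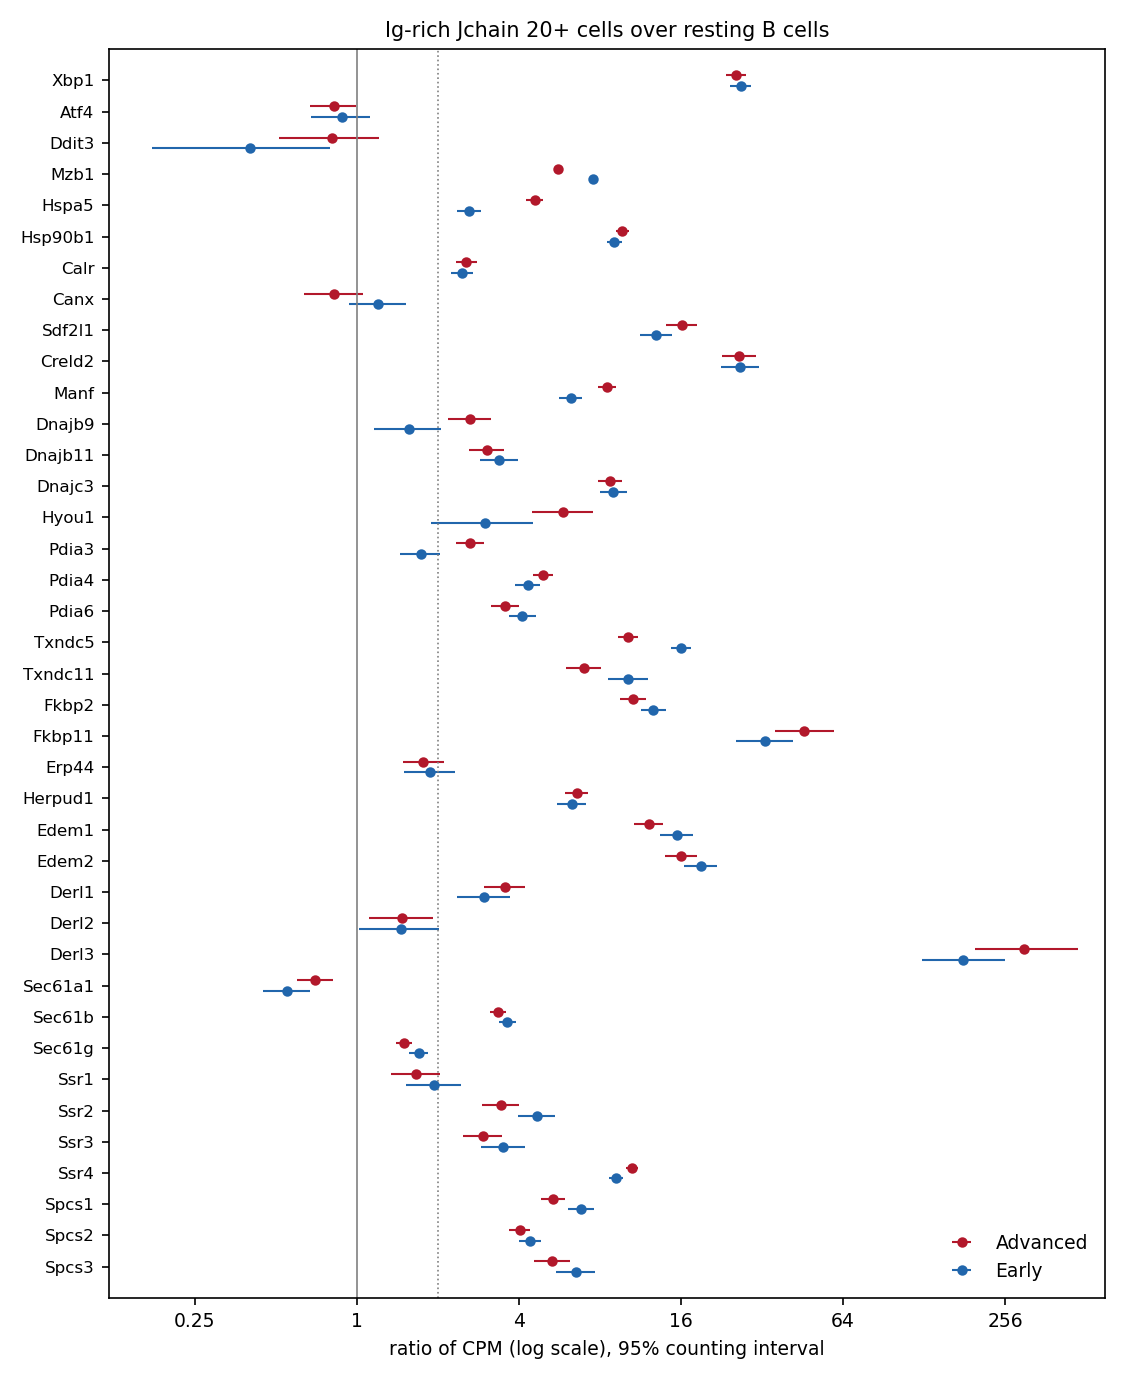
Points give the ratio of CPM of immunoglobulin-rich Jchain-gated cells to resting B cells for the 39 members without Jchain (rows, grouped by role), on a log axis, with 95% counting intervals, Advanced drawn above Early. The solid line marks 1 and the dotted line 2. Derl3, Fkbp11, Creld2 and Xbp1 lie farthest right, and Canx, Sec61a1, Atf4 and Ddit3 lie left of 1 in the Advanced library.

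The genes that work beside the list were read for comparison, from lists of partners. In immunoglobulin-rich over resting B cells, the 15 sensors and PERK-arm genes had 2 (Advanced) and 3 (Early) called higher, with median log2 ratios of -0.54 and -0.79. The 14 folding partners had 5 in each library, with medians of 0.87 and 1.08. The 10 degradation partners had 3 and 4, the 23 translocation and glycosylation partners 8 and 9, and the 15 genes of ER to Golgi transport 5 and 6. The shares of all genes called higher are those given above for immunoglobulin-rich over resting B cells. The medians given for the sensors and for the folding partners were below the 2.30 and 2.14 of the 39 members, and the all-gene medians were -1.01 and -1.12.

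**Figure D4:**
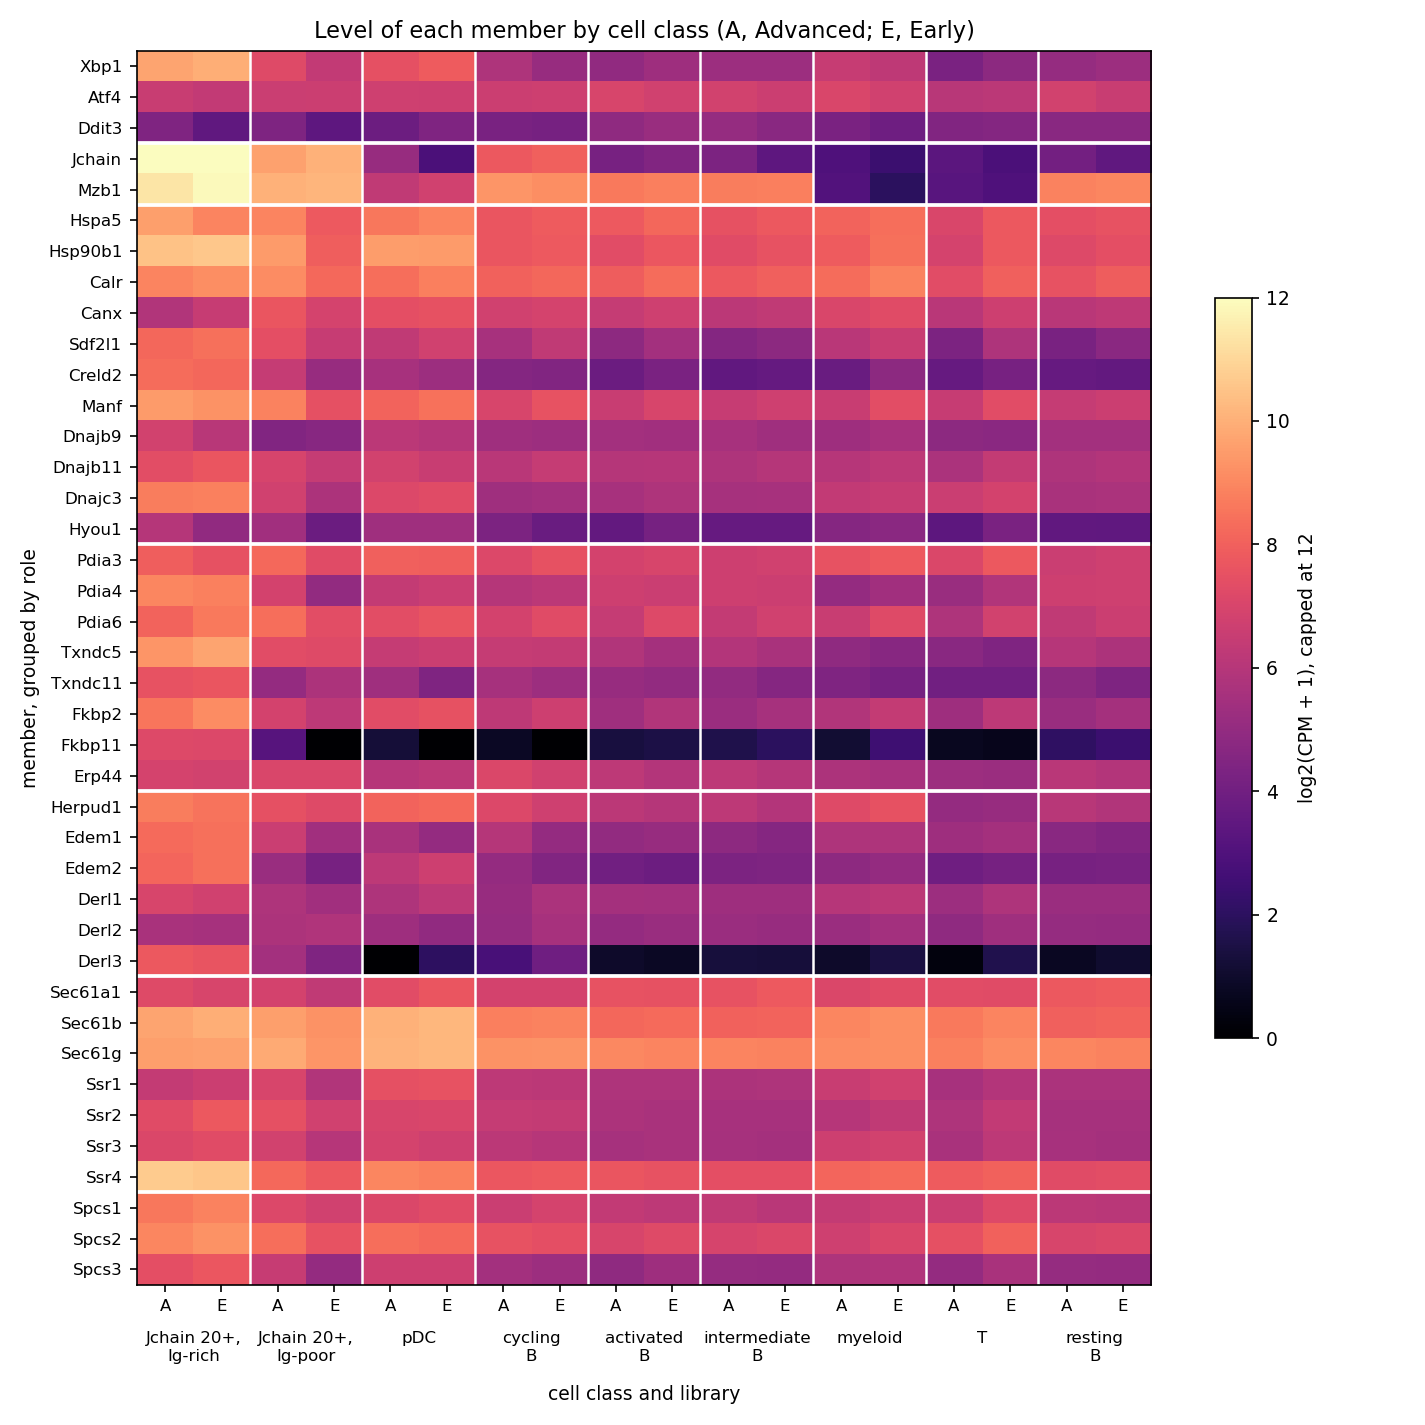
Each row is 1 of the 40 members, grouped by role, and each pair of columns is a cell class with Advanced (A) left of Early (E). Colour gives log2(CPM + 1), capped at 12. Derl3 and Fkbp11 are dark in most classes other than the immunoglobulin-rich cells, Mzb1 is at 469 (Advanced) and 500 CPM (Early) in resting B cells and under 10 CPM in T and myeloid cells, and Atf4 and Ddit3 vary little between classes.

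pDCs, which export large amounts of interferon when triggered, were the class with the next highest sum after the Jchain-gated cells. It reached 7940 CPM (Advanced) and 8558 CPM (Early), 2.18-fold (2.12 to 2.24) and 2.25-fold (2.19 to 2.32) the level of resting B cells. The single-cell medians of 8337 and 8821 CPM were close to these sums. Over resting B cells, 21 (Advanced) and 19 (Early) members were called higher, against 12.8% and 13.8% of all genes, and 1 (Mzb1) was called lower, against 3.66% and 3.29%. After scaling by the trimmed mean of M values (TMM), which moves the ratio of all genes by -0.37 and -0.43 on the log2 scale, 11 and 9 members were called higher. No share of all genes is given under TMM, so these counts are not set against the 21 and 19. Sec61b was at 1060 and 1169 CPM and Sec61g at 1109 and 1156 CPM in pDCs, above immunoglobulin-rich cells, where Sec61b was at 852 and 996 CPM and Sec61g at 757 and 795 CPM. That order turns when immunoglobulin genes are left out of the totals: immunoglobulin-rich cells then held Sec61b at 1646 and 1979 CPM and Sec61g at 1463 and 1579 CPM, against 1062 and 1172 CPM and 1112 and 1159 CPM in pDCs. Xbp1 was at 180 and 230 CPM in pDCs, 5.38-fold and 6.18-fold the level of resting B cells. Derl3 had 0 UMIs in the 44 Advanced pDCs, which allows up to 4.02 CPM, and 2 UMIs in the 40 Early ones. Fkbp11 had 1 and 0 UMIs, and Mzb1 was at 79.1 and 109 CPM.

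By highest class among the 8 gated classes with the Jchain gate whole, 31 of 39 members without Jchain peaked in the Jchain gate in the Advanced library and 24 in the Early library. pDCs held 4 and 10 peaks. The share of all genes that peaked in each class is not given, so these counts describe the list alone. The counting interval of the ratio of a member's highest to its next class held 1 for 8 (Advanced) and 14 (Early) of the 39, and the order of those neighbours is within counting error.

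Activated B cells differed little from resting B cells. The summed ratio was 1.06 (Advanced) and 1.12 (Early), and 0 members were called in either direction, against 0.439% and 0.641% of all genes called higher and 0.0141% and 0% called lower. Cycling B cells were at 1.33 in both libraries. Of their members, 0 (Advanced) and 2 (Early, Sdf2l1 and Derl3) were called higher, against 9.42% and 11.4% of all genes, and none was called lower, against 1.81% and 1.93%. Immunoglobulin-poor Jchain-gated cells, most of which cycle, had 8 members called higher than in cycling B cells in the Advanced library and 0 in the Early one, against 1.05% and 0.304% of all genes, and 0 called lower in either, against 1% and 1.16%. The 8 were Xbp1, Hspa5, Hsp90b1, Pdia6, Sdf2l1, Creld2, Manf and Derl3. These calls rest on few cells. The top Advanced cell of each held between 27.3% (Pdia6) and 51.4% (Creld2) of its UMIs among immunoglobulin-poor cells. Creld2 had a UMI in 9 and Derl3 in 6 of the 19 cells.

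Between stages, Advanced over Early, a member was called at a ratio of at least 5 to 4 in either direction with an interval that does not hold 1. Resting B cells, the largest class, are given first. Their summed members were at 3642 CPM (Advanced) and 3796 CPM (Early), a ratio of 0.959 (0.952 to 0.967), and 1 member was called higher and 3 lower, against 5.59% and 0.555% of all genes. Sdf2l1 was at 18.2 CPM (Advanced) and 26.3 CPM (Early), Pdia6 at 76.9 and 98.9 CPM, and Fkbp2 at 35.3 and 44.2 CPM. Txndc11 was the only one called higher, at 27.4 and 19.8 CPM. Calr, at 189 CPM (Advanced) and 235 CPM (Early), and Hsp90b1, at 148 and 173 CPM, lay below the Early level without reaching that ratio. Atf4, at 113 and 93.4 CPM, lay above it, also without reaching it. Intermediate B cells gave 2 higher and 2 lower (7.70% and 1.245% of all genes), cycling B cells 3 higher and 5 lower (5.74% and 5.15%), and activated B cells 1 higher and 8 lower (7.85% and 3.78%). Pdia6 and Fkbp2 were among the lower members in all 4 of these B cell classes. Pdia6, a disulfide isomerase that also dampens ER stress signalling, was at 82.9 CPM (Advanced) and 108 CPM (Early) in intermediate, 117 and 157 CPM in cycling and 85.8 and 145 CPM in activated B cells. In cycling B cells the members called higher were Edem1, at 61.3 CPM (Advanced) and 31.9 CPM (Early), Herpud1, at 141 and 104 CPM, and Xbp1, at 53.8 and 34.3 CPM. Their Manf was at 129 and 191 CPM, Sdf2l1 at 47.9 and 77.3 CPM and Pdia3 at 142 and 181 CPM. The summed ratio of cycling B cells, 0.965 (0.932 to 0.999), is 1.02 when each cell has the same weight and 1.23 among cells of 4000 to 12000 UMIs. In intermediate B cells the higher members were Ddit3, at 33.3 and 25.5 CPM, and Txndc11, at 30.4 and 23.2 CPM. Activated B cells held Txndc5, their 1 higher member, at 58.6 CPM (Advanced) and 44.5 CPM (Early). They held Sdf2l1 at 27.9 and 42.9 CPM, Hspa5 at 220 CPM (Advanced) and 292 CPM (Early), Calr at 241 and 318 CPM, and Manf at 93.1 and 127 CPM.

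Outside the B cells the members were also lower in the Advanced library in sum. The ratio was 0.928 (0.894 to 0.963) in pDCs, 0.838 (0.819 to 0.857) in myeloid cells and 0.729 (0.712 to 0.747) in T cells. pDCs had 0 members called higher and 3 lower (5.40% and 5.59% of all genes), namely Calr at 326 CPM (Advanced) and 439 CPM (Early), Manf at 270 and 351 CPM, and Xbp1 at 180 and 230 CPM. The make-up of the pDCs moved as well: the 6 cycling markers summed to 18.8 CPM (Advanced) and 376 CPM (Early), the myeloid gene Lyz2 was at 594 and 112 CPM, and the B cell gene Fcer2a at 196 and 6.29 CPM. Among the 43 Advanced and 37 Early pDCs under 3 cycling UMIs the ratio was 0.914 (0.879 to 0.9496), with 0 members higher and 6 lower, the same 3 among them. No share of all genes is given for these cells, so the 6 are not read as a result about the members. The part of Lyz2 and Fcer2a in these values was not tested. Myeloid cells had 0 and 8 (8.95% and 6.48%), led by Manf at 92.2 CPM (Advanced) and 163 CPM (Early). Creld2 was at 12.8 and 27.3 CPM, Pdia6 at 91.5 and 152 CPM, Hsp90b1 at 230 and 345 CPM, and Calr at 320 and 469 CPM. Among myeloid cells of 4000 to 12000 UMIs, 1 member was called higher and 2 lower. T cells had 0 and 21, against 6.54% and 33.6% of all genes. Sdf2l1 in T cells was at 19.4 CPM (Advanced) and 54.4 CPM (Early), Pdia6 at 53.5 and 111 CPM, Hsp90b1 at 120 and 215 CPM, and Hspa5 at 134 and 216 CPM. Manf was at 89.1 and 163 CPM and Fkbp2 at 39.4 and 73.6 CPM. Among T cells of 4000 to 12000 UMIs, 6 members were called lower. No share of all genes is given for this depth window in myeloid or T cells, so its counts are not set against the others.

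The make-up of the T cells differed between the libraries as well. A UMI of Mki67, Top2a, Foxp3, Ctla4, Icos, Pdcd1, Tnfrsf4 or Izumo1r was found in 57.3% of Advanced and 76.9% of Early T cells. T cells with none of these numbered 462 (Advanced) and 34 (Early). Their summed members were at 2778 CPM (Advanced) and 2902 CPM (Early), a ratio of 0.957, and 0 members were called in either direction. With 34 Early cells few counts stand behind the calls, so the 0 is not read as a result about the members. T cells with such a UMI held 3315 CPM (Advanced) and 4503 CPM (Early). Each of these genes was found in a larger share of all T cells in the Early library. Mki67 had a UMI in 4.62% of Advanced and 16.3% of Early T cells, and Tnfrsf4 in 20.6% and 42.9%. The part of the make-up in the T cell values was not tested. TMM moves all T cell ratios by 0.27 on the log2 scale, and 2 members were then called higher and 12 lower, with a summed ratio of 0.880. No share of all genes is given under TMM, so these counts are not read as a result about the members.

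In the Jchain gate the summed UMIs of the 2 kinds of cell gave ratios on opposite sides of 1, while the medians over single cells were higher in the Advanced library in both. Over the whole gate the ratio was 1.15 (1.13 to 1.17), with 16 members called higher and 0 lower, against 9.92% and 12.3% of all genes. The whole-gate level of Hspa5 was 656 CPM (Advanced) and 346 CPM (Early), a ratio of 1.89, and that of Manf was 616 and 381 CPM. Pdia3 was at 271 and 167 CPM, Pdia4 at 337 and 225 CPM, and Hyou1 at 53.7 and 21.0 CPM. A single Advanced cell held 33.0% of the gate's Pdia4 UMIs. Without the top cell of each library the Pdia4 ratio was 1.18 (1.02 to 1.36), too small to be called. Those of Hspa5, Manf, Pdia3 and Hyou1 were then between 1.61 and 2.02. In immunoglobulin-rich cells alone the summed ratio was 0.904 (0.885 to 0.923), with 4 higher and 6 lower (10.9% and 7.89% of all genes), and in immunoglobulin-poor cells it was 1.55 (1.49 to 1.60), with 27 higher and 1 lower (10.6% and 5.74%). The medians of immunoglobulin-rich cells were 15023 CPM (Advanced) and 13903 CPM (Early). Cycling markers moved with the summed ratio of these cells: the list of 6 summed to 24.0 CPM (Advanced) and 343 CPM (Early), with Birc5 and Ccnb1 at 0 in the Advanced library. The 29 Advanced and 17 Early immunoglobulin-rich cells under 3 cycling UMIs held the members at 14874 CPM (Advanced) and 15299 CPM (Early). The ratio was 0.972 (0.947 to 0.998), with 4 called higher (Hspa5, Manf, Pdia3 and Sec61g) and 5 lower (Calr, Dnajc3, Edem2, Fkbp2 and Txndc5). The share of all genes called is not given for this subset, so its counts are not read as a result about the members. The gate held 32 immunoglobulin-rich cells of 51 in the Advanced library and 21 of 44 in the Early one. The 4 higher members of all immunoglobulin-rich cells were Hspa5, Hyou1, Dnajb9 and Pdia3, and the 6 lower ones were Mzb1, Pdia6, Fkbp2, Txndc5, Canx and Ssr2. Of these, Hspa5, Pdia3, Fkbp2 and Txndc5 were also called among the cells under 3 cycling UMIs, and the others were not. Hspa5 was at 777 CPM (Advanced) and 487 CPM (Early), a ratio of 1.59 (1.41 to 1.7995), but its median over single cells was 433 CPM (Advanced) and 431 CPM (Early). A single Advanced cell, which also held 12 UMIs of the T cell gene Cd3e, held 32.8% of the Hspa5 UMIs. Without the top cell of each library the Hspa5 ratio was 1.252 (1.10 to 1.43). Hyou1, a large ER chaperone, was at 62.4 and 30.2 CPM, a ratio of 2.07, against 1.29 (0.733 to 2.31) without the top cells. Dnajb9, a BiP co-chaperone, was at 112 and 66.8 CPM. Of the lower members, Pdia6 was at 273 CPM (Advanced) and 407 CPM (Early), Fkbp2 at 376 and 558 CPM, and Txndc5 at 647 and 845 CPM. Mzb1, at 2624 CPM (Advanced) and 3776 CPM (Early), kept a ratio below 1 without the top cells, at 0.760 (0.717 to 0.805), although its single-cell medians of 2030 and 1824 CPM ran in the opposite order.

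In immunoglobulin-poor cells Hsp90b1 was at 725 CPM (Advanced) and 248 CPM (Early), Pdia4 at 115 and 30.5 CPM, and Manf at 465 and 175 CPM. These values rest on few cells as well. The top Advanced cell of each gene held 42.0% of its Hsp90b1, 52.6% of its Pdia4 and 30.4% of its Manf UMIs. Single-cell medians were 139 CPM (Advanced) and 145 CPM (Early) for Hsp90b1, in the opposite order. They were 39.5 and 0 CPM for Pdia4 and 164 and 127 CPM for Manf. Without the top cells the ratios were 2.72 for Hsp90b1, 2.52 for Pdia4 and 2.53 for Manf. The Advanced cell of highest level, at 22520 CPM, held 27.5% of all member UMIs of its kind, and without the top cell of each library the summed ratio was 1.32 (1.27 to 1.37). The medians over single cells were 5442 CPM (Advanced) and 4810 CPM (Early). Another Advanced cell of this kind held 55 UMIs of the pDC marker Siglech, while 2 immunoglobulin-rich Advanced cells held 14 and 12 Cd3e UMIs.

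**Figure D5:**
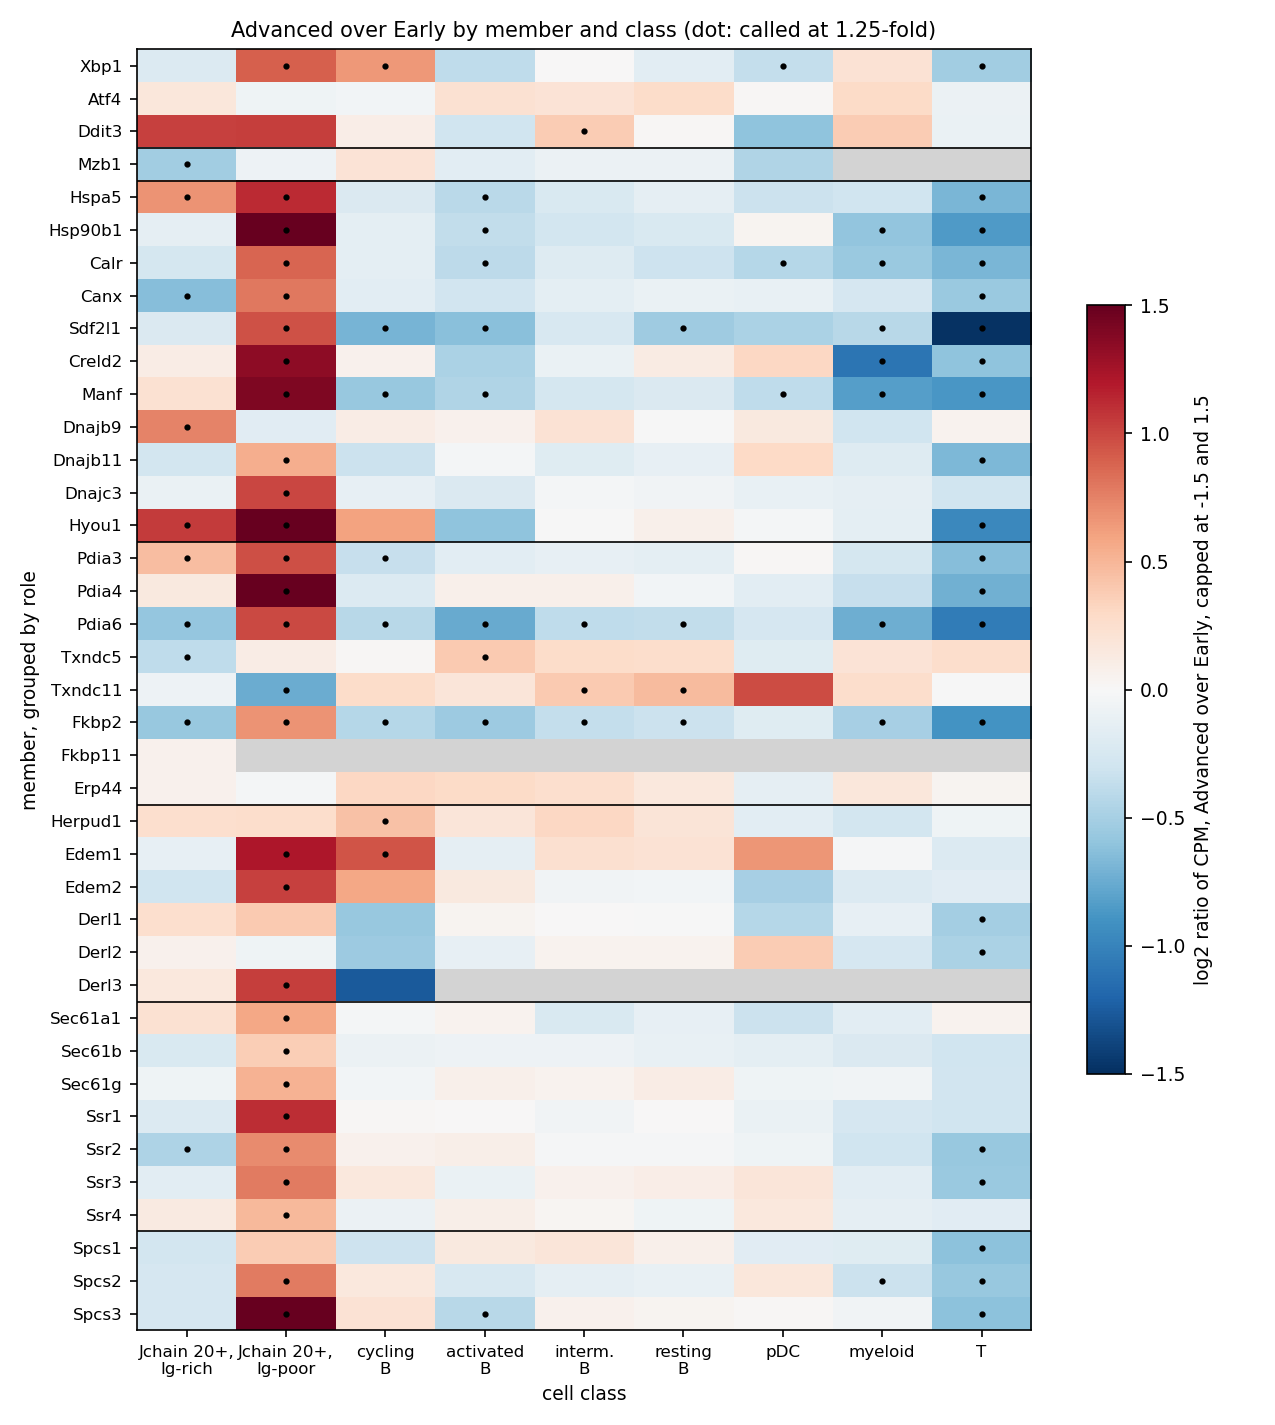
Colour gives the log2 ratio of CPM, Advanced over Early, capped at -1.5 and 1.5, for the 39 members without Jchain (rows, grouped by role) in 9 cell classes (columns). Dots mark called members and grey marks members under 10 CPM in both libraries. The T cell column is mostly blue (21 lower, 0 higher), the column of immunoglobulin-poor cells mostly red (27 higher, 1 lower), and Pdia6 and Fkbp2 are blue in every other class.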

How the data were processed

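The deposited files hold whole-number UMI counts per gene and barcode, 1 filtered matrix per library, which the authors made with Cell Ranger against mm10. The submitters' processing notes give Cell Ranger 3.1.0 and Seurat 4.0.3, whereas the matrix headers name Cell Ranger 6.0.1. Members and partner lists were chosen with earlier results of these data known. Rows of the same symbol were summed, and 18 Advanced and 21 Early barcodes under 200 genes were left out. No doublet caller was run; cells that passed gates of unlike lineages were set aside, except in the Jchain gate.

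Gates were Jchain 20 or more UMIs, then precursor (Vpreb1, Igll1, Dntt and Rag1, 3 or more), Siglech 3 or more (pDC), Cd79a plus Ms4a1 5 or more (B), Cd3d, Cd3e and Cd3g 3 or more (T), and Csf1r plus Cst3 8 or more (myeloid). B cells were cycling with Mki67 plus Top2a at 3 or more, activated with Cd83 plus Egr3 at 5 or more and resting at 1 or fewer. UMIs were summed per class and scaled to CPM. Intervals (95%) are exact Poisson for levels and exact conditional for ratios, and a count of 0 allows up to 3 UMIs. With 1 pooled library per stage no test was run. Xbp1, Jchain, Mzb1 and Hspa5, and in each comparison up to 5 members higher and 5 lower by the interval end nearest to 1, are named with values; others were named after their values were seen. Interval coverage was checked on simulated counts. Alternatives were TMM scaling (edgeR 4.0.16), totals without immunoglobulin, a depth window, equal weight per cell, stricter gates, other minimums and folds, and leaving out the top cell. Library depth was 83148059 (Advanced) and 67610110 (Early) UMIs. Python 3.11.15, scipy 1.17.1 and matplotlib 3.10.9 were used.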

Additional observations from a re-analysis of the deposited data

How the results depend on the processing

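No paired analysis was possible because each stage is 1 library and the labels carry no replicate numbers. Results are listed as Advanced over Early unless a contrast is named. The share of all genes called is not given for these alternatives, so their counts describe only how the calls move. With TMM the summed ratio was 0.877 in activated, 0.911 in intermediate and 0.899 in resting B cells and 0.880 in T cells. TMM called 0 members higher and 4 lower in intermediate B cells, 2 and 12 in T cells, 11 (Advanced) and 9 (Early) higher in pDCs over resting B cells, and 1 higher and 1 lower in Early cycling over resting B cells. Totals without immunoglobulin gave a ratio of 1.23 for the Jchain gate. Among cells of 4000 to 12000 UMIs the ratio was 1.23 in cycling B, 0.947 in resting B, 0.946 in myeloid and 0.830 in T cells, with 0 lower in cycling B, 1 higher and 2 lower in myeloid and 6 lower in T cells. The Jchain gate was not run in that window, which left too few cells. Equal weight per cell gave 1.09 (Jchain gate), 1.02 (cycling B), 0.915 (myeloid) and 0.799 (T), with 2 lower in cycling B, 2 higher in activated B, 1 higher in pDCs, and 3 higher and 5 lower in myeloid cells.

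Stricter gates gave 0.889 in pDCs with 1 higher and 7 lower, 1 higher in cycling B, 2 higher and 5 lower in activated B and 0 higher in intermediate B cells. Without the top cell of each library the ratio was 1.19 (Jchain gate) and 0.869 (myeloid), with 2 lower in cycling B and 1 higher in pDCs. In class contrasts it gave 1 lower in the Early Jchain gate, and 1 higher in cycling over resting B cells in each library. A minimum of 50 CPM gave 0 higher and 1 lower in intermediate B and likewise 0 and 1 in resting B cells, and no minimum gave 1 higher in myeloid cells and 1 higher in Advanced cycling over resting B cells. With the whole interval beyond a ratio of 5 to 4, 6 were higher in the Jchain gate, 1 higher and 0 lower in cycling B, 0 and 1 in activated B, 0 and 0 in intermediate B, 1 lower in resting B, 0 lower in pDCs and 5 lower in myeloid cells. With 1.5-fold in place of 2-fold, 2 were lower in the Early Jchain gate, and 7 higher and 1 lower in cycling over resting B cells in each library.

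Chosen after seeing the data, immunoglobulin-rich cells alone gave 0.904 with 4 higher and 6 lower, those under 3 cycling UMIs 0.972 with 4 higher and 5 lower, pDCs under 3 cycling UMIs 6 lower, and T cells without activation or cycling UMIs gave 0.957 with 0 lower. Gated cells of no other lineage gave 14 higher (Advanced) over resting B cells. Relative to 1, the ratio changed sides in the Jchain gate with immunoglobulin-rich cells alone, with or without those of 3 or more cycling UMIs. It also did so in cycling B cells under equal weights and in the depth window. The causes were not tested. With few Jchain-gated cells and 1 library per stage, intervals cover counting error only.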

Other observations

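Cells that entered no comparison also carried the members. Precursor-gated cells, 202 in the Advanced and 50 in the Early library, had a median of 4880 and 7839 CPM per cell for the 39 members without Jchain. Of these, 50 Advanced and 26 Early cells also held 3 or more Siglech UMIs. With the pDC gate placed before the precursor gate, pDCs numbered 94 (Advanced) and 66 (Early), and 0 members were called higher and 3 lower (Advanced over Early). Calr was lower under both gate orders, and the others were then Hspa5 and Edem2. The share of all genes called is not given for this gate order, so its counts are not read as a result about the members. The cells set aside for passing gates of unlike lineages had medians of 3653 CPM (Advanced) and 4114 CPM (Early).

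Cells just outside the Jchain gate, with 10 to 19 Jchain UMIs, numbered 34 (Advanced) and 33 (Early), with medians of 4761 and 5274 CPM for the 39 members. Those just inside, with 20 to 29, numbered 11 and 13, with 4864 and 4635 CPM. Over single immunoglobulin-rich cells, the immunoglobulin share was set against the members' level per UMI of other genes. Their Spearman correlation was 0.33 over 32 Advanced and 0.09 over 21 Early cells, which share a library each. Both quantities use the cell's immunoglobulin UMIs, which leave the divisor of the level. A positive value is thus partly built in, and no link is read from it.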
